A study of Drosophila melanogaster with 6 samples.

Results

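The gene jing on chromosome arm 2R of Drosophila melanogaster was examined as a target locus of the homeodomain factor Drgx in T4/T5 neurons. The gene was chosen by its interval count, since more intervals of the deposited list lie in it than in any other gene. That count is therefore a description, and no test was made of it. All intervals that met the jing body or lay within 50 kb of it were taken, using Release 6 RefSeq coordinates. This gave 15 of the 2396 intervals in the list. The gene body held 14 of them, the right flank held 1, and the left flank held none.

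The study used Targeted DamID, in which the Dam methylase marks GATC motifs in the DNA near the protein it is fused to. The Dam-Drgx group had 3 samples carrying the transgene UAS-Dam-DRGX, and the Dam-only group had 3 samples carrying UAS-Dam, which marks open chromatin without a binding partner. Both groups also carried the membrane marker UAS-CD8-GFP, the driver R23G12-Gal4 and the temperature-sensitive Gal4 inhibitor tubGal80ts. Neither genotype lists a Drgx mutation. Larvae were kept at 18 °C and moved to 29 °C for 24 h in the third instar, so that the transgenes were expressed for a limited time. DNA came from dissected brains, and the driver line alone limits the methylation to T4/T5 cells. How many brains went into a sample is not given in the labels. A list of intervals carries no expression values, so the labelled cell type could not be checked against marker levels.

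The deposited list is a single set of intervals. Each has a score and a false discovery rate (FDR) given by the authors, and the list is assumed to compare Dam-Drgx with Dam-only. The scale of the score is not stated, so scores were compared only within the list. Over all 2396 intervals the score had a median of 2.83 and quartiles of 2.31 and 3.62, and the width had a median of 1617 bp. No value per sample was used, so no replicate error can be attached to a score, and read depth is unknown. The intervals of a gene share a locus and are not replicates of a condition.

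The jing gene encodes a nuclear protein with C2H2 zinc fingers that is related to mammalian AEBP2, an accessory subunit of Polycomb repressive complex 2. That complex methylates histone H3 and keeps developmental genes silent. In flies, jing is known for its roles in border cell migration in the ovary, in trachea and midline cells of the embryo, and in the proximal to distal axis of wings and legs. Drgx belongs to the Paired-like class of homeodomain factors.

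In the Release 6 table jing (Dmel_CG9397) is a protein-coding gene at positions 6502006 to 6621792 of arm 2R, a body of 119787 bp. The table gives no strand and no exons, so "left" and "right" below mean lower and higher coordinates. The place of intervals relative to exons, introns and UTRs was not analysed here. The submitters' processing notes name the build BDGP6, which is the Release 6 assembly. The 14 intervals covered 21459 bp, or 17.9% of the body, and were spread over 108.6 kb of it. They made up 3.31% of the 423 intervals on 2R, while the gene body makes up 0.474% of that arm's annotated length.

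**Figure D1:**
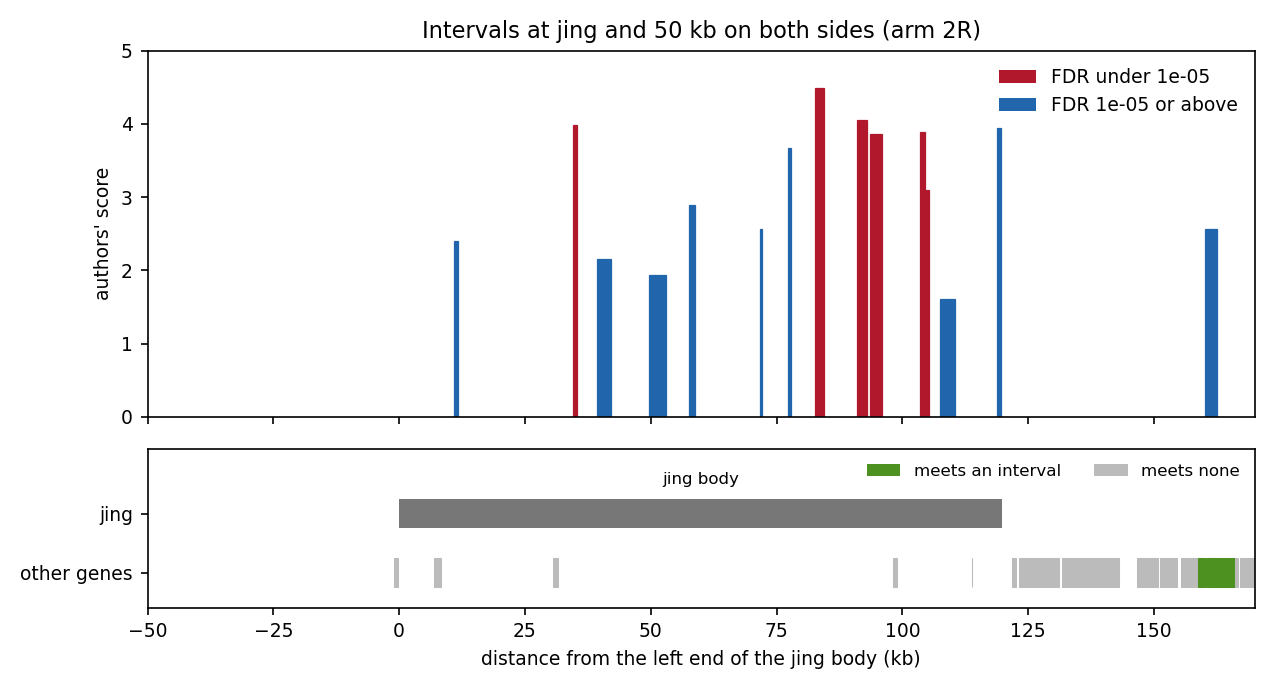
Upper panel: the authors' score (vertical axis) of the 15 intervals against distance in kb from the left end of the jing body, with bar width to scale and colour giving the FDR class. Lower panel: the jing body and the other 20 genes of the region. Of the 14 intervals in the body, 9 lie in its right part and 5 in its left part, the left flank is empty, and the single interval of the right flank meets the 3 neighbour genes drawn in green.

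The left end of the gene was thinly filled. The first interval, at 6512983 to 6513776, began 10977 bp inside the left end and had a score of 2.40 and an FDR of 0.000739. The longest stretch without an interval followed it, a gap of 22766 bp. It contains lncRNA:CR43905, a long non-coding RNA gene inside jing that met no interval itself.

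A run of 4 intervals then filled 24.2 kb near the middle of the gene. The run opened with a narrow, high-scoring interval at 6536543 to 6537419, with a score of 3.98 and an FDR of 6.46e-09. This was the only interval of the left part with an FDR under 1e-05. Next came a pair of broad intervals of low score. The interval at 6541311 to 6544136 scored 2.16. The widest interval of the locus, of 3256 bp at 6551727 to 6554982, scored 1.94. The run closed at 6559519 to 6560712 with a score of 2.90, close to the median of the whole list.

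After a gap of 12909 bp, 9 intervals occupied the last 48.0 kb up to the right end. The first of these were narrow. The interval at 6573622 to 6574148 was 527 bp wide with a score of 2.57, the narrowest of the locus. That at 6579348 to 6579939 was 592 bp wide with a score of 3.67. Its FDR of 0.0057 was the highest of the 14, so a high score and a low FDR did not always go together here.

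The highest score of the locus, 4.49, belonged to the interval at 6584692 to 6586359, which had an FDR of 1.04e-10 and ranked at position 130 of the 2396 scores. After a gap of 6548 bp came a close pair. The interval at 6592908 to 6594976 scored 4.06 and that at 6595590 to 6597989 scored 3.86. These had the lowest FDR at jing, 4.44e-17, which ranked at position 64 in the list. The stretch from 82.7 to 96.0 kb of the body thus held the highest score and the lowest FDR of the gene.

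Another close pair followed, with a score of 3.89 at 6605486 to 6606396 and of 3.10 at 6606659 to 6607310. Both of its intervals had an FDR of 2.46e-12. At 2213 bp from this pair began the interval with the lowest score of the locus, 1.61, at 6609524 to 6612400. Only 0.918% of the list scored lower. The last interval, at 6620808 to 6621623, had a score of 3.95 and ended 169 bp inside the right end of the gene. It was the only one of the 14 within 5 kb of either end of the body.

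The close pairs were separated by gaps of 613 bp and 262 bp, and the intervals of each pair carried the same FDR. Such pairs are frequent in the list: of 121 neighbouring pairs within 1 kb, 66 shared their FDR. The 2396 intervals took only 140 distinct FDR values, and 2383 intervals shared theirs with another. Whether an equal FDR marks a pair as 1 event was not tested. With pairs within 1 kb joined, the jing body held 12 intervals.

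The 13 gaps inside the body ranged from 262 to 22766 bp with a median of 5199 bp, and 11 of them were under 10 kb. Across the rest of the list the median gap between neighbours on an arm was 23937 bp. An even spread of the 14 intervals over the body, with both end pieces counted, would give gaps of 6555 bp. That value is a mean over all pieces and is not directly comparable with the median of 5199 bp. The gene was chosen by its interval count, so its spacing is a description and was not tested.

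**Figure D2:**
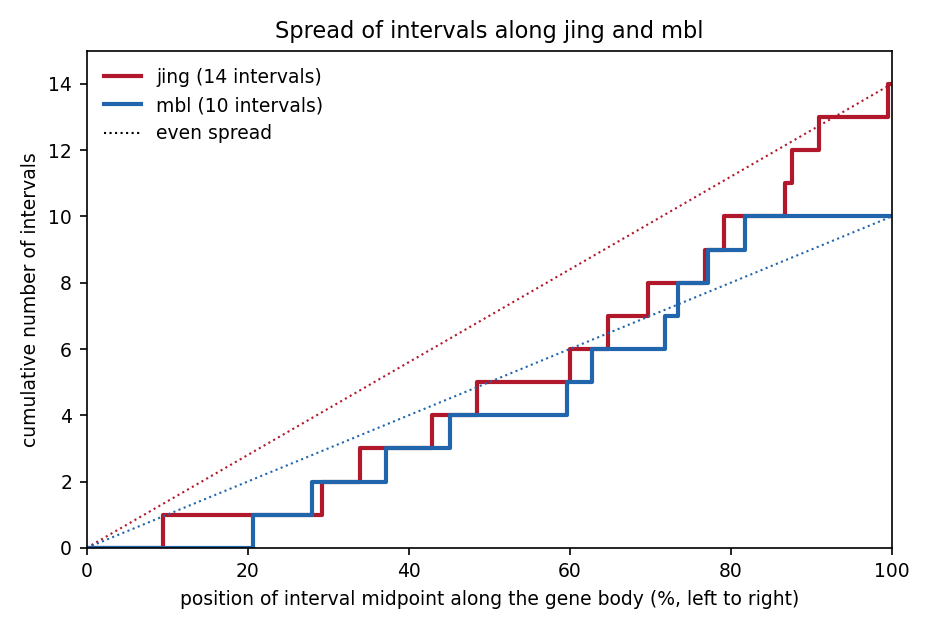
Cumulative number of intervals (vertical axis) against the position of interval midpoints along the gene body in % (horizontal axis, left to right) for jing and mbl, with dotted lines for an even spread. Both curves lie below their even line over the left part of the gene, and in jing the last interval sits at 99.5% of the body.

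Scores were higher in the right part of jing than in the left. The 9 intervals with midpoints right of the centre had scores from 1.61 to 4.49 with a median of 3.86, and 5 of them had an FDR under 1e-05. The 5 on the left had scores from 1.94 to 3.98 with a median of 2.40, and 1 of them had such an FDR. The ranges overlapped, and the lowest score of all lay on the right. The difference was not tested, since the intervals are not independent.

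The scores at jing were then set beside the list. The 14 body intervals had a median score of 3.38 with quartiles of 2.44 and 3.94, and the other 408 intervals of arm 2R had a median of 2.90 with quartiles of 2.31 and 3.70. The 510 intervals in other protein-coding genes of at least 50 kb had a median of 2.75 with quartiles of 2.28 and 3.44. At mbl, which encodes the RNA splicing factor muscleblind, the 10 intervals had a median of 3.49 with quartiles of 3.13 and 3.91. The jing quartiles overlap those of every one of these sets.

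**Figure D3:**
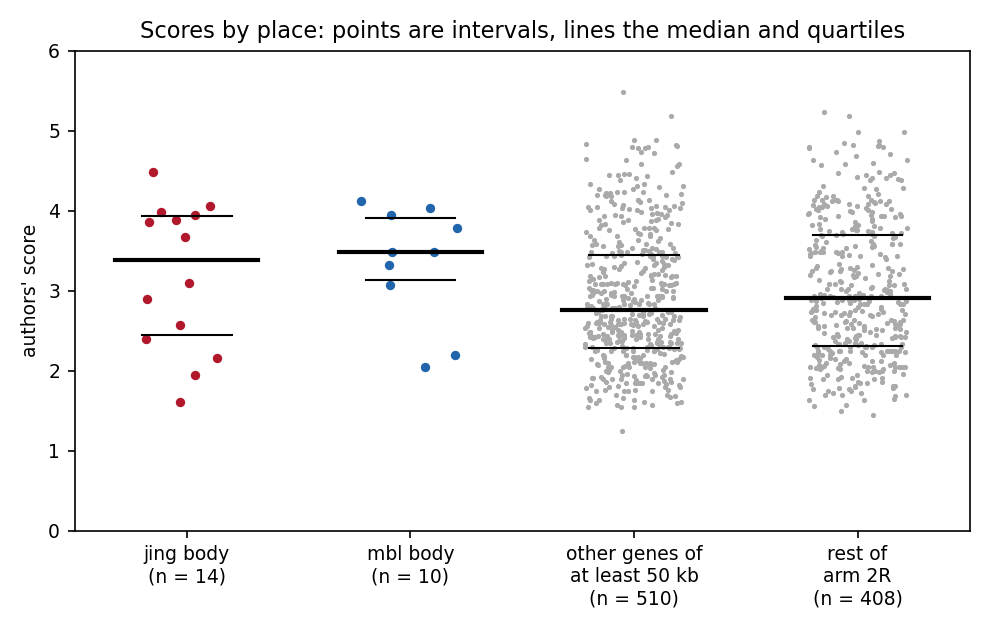
The authors' score (vertical axis) of single intervals (points) in the jing body, the mbl body, other protein-coding genes of at least 50 kb (mbl included) and the rest of arm 2R, with thick lines for medians and thin lines for quartiles. The jing median of 3.38 lies above those of other long genes (2.75) and of the rest of 2R (2.90), and the clouds overlap.

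Above the list's median lay 9 of the 14 jing intervals, against 49.9% of the list. By the quartiles of the list, 7 of the 14 jing intervals reached the upper quartile of 3.62, a level reached by 25.3% of the list. Another 3 lay at or below the lower quartile, as did 25.3% of the list. An FDR under 1e-05 was found at 6 of the 14, against 30% of the list. The highest score at jing, 4.49, was well below the list's maximum of 6.47. These shares are descriptions and were not tested. With the flank interval included, the 15 intervals had a median score of 3.10 and a median width of 1194 bp.

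Widths at jing ranged from 527 to 3256 bp with a median of 1052 bp, against 1542 bp on the rest of 2R and 1857 bp in other long genes. Of the 14 intervals, 9 were at most 1668 bp wide and 5 were at least 2069 bp wide. Of these 5 widest intervals, 3 had the lowest scores of the gene (1.61, 1.94 and 2.16) and the other 2 formed the pair with the lowest FDR. Across the 14 intervals, Spearman's rho between score and width was -0.23, against -0.48 on the rest of 2R. Both are descriptions over intervals of 1 list.

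**Figure D4:**
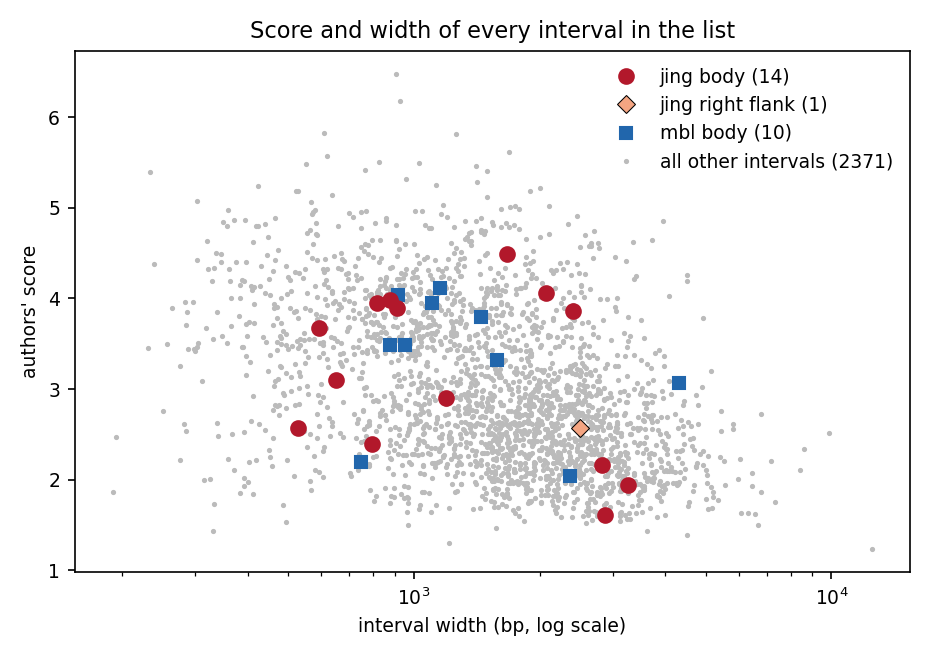
The authors' score (vertical axis) against interval width in bp (horizontal axis, log scale) for all 2396 intervals, with those of the jing body, the jing right flank and mbl marked. The 14 jing intervals span scores from 1.61 to 4.49 and lie inside the cloud of the other intervals.

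The region held 20 other annotated genes, and 3 of them met an interval, against 8.01% of all 17684 annotated genes. All 3 were met by 1 and the same interval, that of the right flank. Inside the jing body lie 4 genes, lncRNA:CR45127, lncRNA:CR43905, the protein-coding gene CG15233 and sisRNA:CR46361, and none of these met an interval. The nearest interval to CG15233 was 2055 bp away, and the distances for the other 3 ranged from 2688 to 3352 bp. The intervals in jing therefore overlapped no other annotated gene.

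The right flank is densely packed with genes. Nearest to jing are CG33919, at 2040 bp, and Vha16-1, which encodes a proteolipid subunit of the vacuolar proton pump, at 3450 bp. Beyond them lie Trap1, which encodes a mitochondrial chaperone, and Bap170, which encodes a subunit of the PBAP chromatin remodelling complex. Further right are Fmo-2 (a flavin monooxygenase), Debcl (a Bcl-2 family protein), Opbp, geminin (an inhibitor of replication licensing) and sced. None of these 9 genes met an interval. The same held for CG15908, CG9410 and Hsepi, which encodes an epimerase of heparan sulfate, at the far edge of the region.

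The single flank interval lay at 6662099 to 6664598, 40307 bp right of jing, with a score of 2.57 and an FDR of 3.41e-05. It covered 40.1% of Adf1, which encodes a transcription factor with a MADF domain, and all of lncRNA:CR45128 inside it. It also covered 20 bp of Dpit47, which encodes an Hsp90 co-chaperone. With the interval midpoint as the criterion, it met 1 gene, Adf1. The nearest interval outside the window on the right was 92783 bp from jing, at 6714575 to 6716465, with a score of 3.08.

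The left flank held only lncRNA:CR46075, which ends 234 bp before jing. Left of it the table lists no gene over 245765 bp, up to Pld, and the list has no interval in that stretch. A large, repeat-rich piRNA cluster is known between Pld and jing. How reads from repeats were handled is not given in the sources used here, and its part in the empty stretch was not tested. The nearest interval on that side was 277885 bp away, at 6222955 to 6224121 inside bin3, with a score of 4.14.

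The count at jing was compared with those at other genes. Of 13922 protein-coding genes, 8.32% met at least 1 interval with their body, and of the 307 with a body of at least 50 kb, 70.4% did. Among those 307 genes the median was 1 interval and the upper quartile 3. Only 4 of them, 1.3%, had 7 or more, namely jing with 14, mbl with 10, and CG43867 and olf413 with 7 each. The lncRNA gene lncRNA:CR44357, with a body of 239347 bp, had 8. There were 7 protein-coding genes with 6 intervals, among them CG32816.

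In body length, jing ranked at position 57 of the protein-coding genes. The 5 genes nearest to it in length had from 0 to 7 intervals. CG43867, with 119759 bp, had 7 intervals. The cell-surface protein gene kek5 and mtgo had 3 each, Svil, which encodes a protein related to supervillin, had 2, and the transcription factor gene Glut4EF had none.

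**Figure D5:**
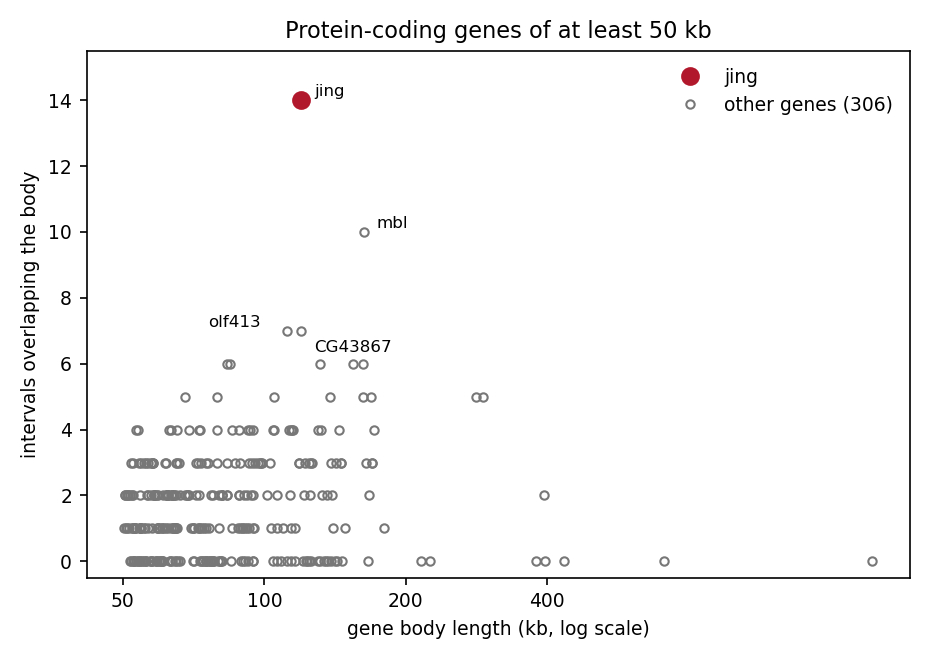
Number of intervals overlapping the gene body (vertical axis) against body length in kb (horizontal axis, log scale) for the 307 protein-coding genes of at least 50 kb. The point for jing lies at 14 intervals, that for mbl at 10, and all others at 7 or fewer.

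Per 10 kb of body, jing had 1.17 intervals, while the rest of its region had 0.1 and arm 2R had 0.167. Both of these lower values include stretches without intervals: the left flank, and the low-coordinate end of 2R. Among the 307 long genes the median was 0.181 and jing was the highest. The next were chinmo, which encodes a BTB zinc-finger factor of neuronal temporal identity, with 0.749, and lov, another BTB factor gene, with 0.743. Then followed px with 0.738, Trim9, which encodes a ubiquitin ligase known from axon branching, with 0.721, and the cell adhesion gene ed with 0.711. By the share of the body covered, jing, with 17.9%, ranked at position 3, behind side-VIII with 20.1% and Trim9 with 18.5%. Those 2 genes had fewer but wider intervals, 3 at side-VIII and 6 at Trim9. The name side-VIII was chosen after its values were seen.

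The first place in density held only for long genes. Among 1012 protein-coding genes of at least 20 kb, 14 were denser than jing, with bodies from 20124 to 40969 bp and 3 to 6 intervals each. The densest was scro, which encodes a homeodomain factor of the NK class, with 1.77 per 10 kb. The others, by falling density, were ham, numb, erm, E2f1, Naam, CycE, Lerp, ssp3, tara, S, ena, chn and tna. These 14 genes were named after their values were seen.

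The gene with the next most intervals was mbl. The 14 intervals of jing had scores from 1.61 to 4.49 and covered 17.9% of its body, and the 10 of mbl had scores from 2.04 to 4.12 and covered 9.50% of a body of 162828 bp. The gaps had a median of 5199 bp at jing and 11001 bp at mbl. The midpoints lay between 9.49% and 99.5% of the body at jing, and between 20.7% and 81.8% at mbl. In both genes the lowest FDR was shared by a neighbouring pair of intervals. The list holds 138 neighbouring pairs within 5 kb that share their FDR. The jing pair had scores of 4.06 and 3.86 and a gap of 613 bp. The mbl pair had scores of 4.12 and 3.79, a gap of 1279 bp and an FDR of 1.76e-12.

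Genes for subunits of Polycomb repressive complex 2, other Polycomb group genes and genes known from the functions of jing were then examined. Of 7 genes for subunits of Polycomb repressive complex 2, 1 met an interval, against 8.32% of all protein-coding genes. It was escl, a paralogue of esc, with a score of 2.06. The overlap was 305 bp, 15.9% of its body, and the midpoint of the interval lay outside escl. The catalytic subunit gene E(z) met none, nor did esc, Su(z)12, Pcl, Jarid2 and the gene of the histone-binding subunit. Of 10 other Polycomb group genes, 4 met an interval, and these were 2 neighbouring pairs of paralogues. The scores were 3.98 at ph-d and 3.94 at ph-p on X, and 3.72 at Psc and 2.94 at Su(z)2 on 2R. Pc, Sce, Scm, pho, phol and Sfmbt met none. The Polycomb list had a median body length of 8360 bp, against 2163 bp for all protein-coding genes, and longer genes met intervals more often.

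Of 12 genes known from the trachea, midline, border cell and appendage functions of jing, 1 met an interval, a share close to the 8.32% of all protein-coding genes. This was hth, which encodes a TALE homeodomain factor. It has a body of 132008 bp and held 4 intervals with scores from 1.54 to 4.78. The median body length of the 12 genes was 7938.5 bp, against 2163 bp for all protein-coding genes, so the shares are not matched for length. The bHLH-PAS factor genes tgo, trh and sim met none, nor did vvl, slbo, btl, exd, tsh, tio, Dll and dac. With 1 kb added on both sides of each gene, which 10.9% of protein-coding genes then meet, the counts of these 3 lists stayed at 1, 4 and 1. At Drgx itself, 3 intervals had scores from 3.62 to 4.27. The Dam-Drgx samples also carry Drgx sequence in the transgene, and whether reads from it entered these intervals was not tested. Of 7 genes of the T4/T5 lineage, 6 met an interval (bi, grn, acj6, Lim1, Sox102F and TfAP-2), against 8.32% of all protein-coding genes, and ato met 3 only with 1 kb added. The median body length of these 7 genes was 33958 bp, against 2163 bp for all protein-coding genes.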

How the data were processed

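Genomic DNA from 3 Dam-Drgx and 3 Dam-only samples was sequenced after Targeted DamID. The authors deposited 1 interval list with a score and an FDR per interval; the score's scale and the caller are not given in the sources used here. The build is BDGP6, per the submitters' processing notes. Here, starts were raised by 1 to give 1-based positions, and an overlap of at least 1 bp counted. Genes came from the RefSeq Release 6 table, restricted to the 6 main arms. Counts per gene, gaps, ranks and medians were computed in pandas 2.3.3 and numpy 2.4.6 under Python 3.11.15, with scipy 1.17.1 for order statistics and matplotlib 3.10.9 for figures. The counting was tested on simulated intervals, and all planted counts were recovered. No test over samples was possible with 1 list, so none was made. Named genes were jing, its neighbours, the genes with the most intervals or highest density, the 5 nearest in length, and fixed lists. Members, lists and rules were chosen with earlier results of these data known. Alternatives covered flank size, joining, score and FDR thresholds, midpoints and length classes.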

Additional observations from a re-analysis of the deposited data

How the results depend on the processing

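Over 11 other settings, 36 of 44 recomputed values stayed close to the reported one, within 1.5 times for counts, shares and ranks and within the 95% order-statistic interval for medians. The medians of score and width compared here are those over the 15 intervals of the region, 3.10 and 1194 bp. The order-statistic interval treats the intervals of the locus as independent, which they are not. It was also wide: 2.40 to 3.95 for the score, 794 to 2500 bp for the width and 2213 to 8407 bp for the gap. A median counted as close may therefore differ clearly from the reported one. jing had the most intervals of any protein-coding gene in each setting that ranked counts. The gene was picked by that count, so this rank is a description. First place in density among genes of at least 100 kb follows from first place among those of at least 50 kb. These ranks are included in the 36 values. With the higher-scoring part of the list only, 9 intervals remained in the region and 9 in the body, 9.33% of the body was covered, and 0 neighbour genes met an interval. With an FDR under 0.001 only, 9 intervals remained in the body and covered 10.9% of it. The median score of the region rose to 3.89 with the higher-scoring part and to 3.875 with the FDR limit. Both values lie above the upper quartile of the whole list, 3.62, but were counted as close. These settings keep fewer intervals by construction, and the higher-scoring part keeps only higher scores. With midpoints, 1 neighbour gene met an interval. Among genes of at least 20 kb, jing ranked at position 15 by intervals per 10 kb. The list gives no depth, so what depth limits is unknown. No paired analysis was possible because the list has no value per sample, and leaving out a replicate could not be done for the same reason.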

Other observations

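The list was also scanned without regard to genes, with a window as long as the jing body (119787 bp) set at the start of each interval. The median window held 3 intervals. The window that begins with the first jing interval held 14, and 3 windows that do not overlap one another held more. The fullest, on 3L at 10229896 to 10349682, held 20 intervals with a median score of 3.02, and 2 of these 20 met a protein-coding gene. It contains the odorant receptor genes Or67c and Or67d, the testis gene can and mir-276b, and otherwise lncRNA genes. The second, on 2L at 14396035 to 14515821, held 16 intervals and spans elB and noc, paired genes for zinc-finger proteins. The third, on 3L at 11336760 to 11456546, held 15, of which 1 met a protein-coding gene.

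A window on 2L at 8757281 to 8877067 around SoxN, a gene for a neural SOX factor, also held 14 intervals, and none of them met a protein-coding gene. A window on 3R at 5011438 to 5131224 around corto held 13, again with none in a protein-coding gene. The 14 intervals at jing all lay inside 1 gene body, while in the 5 other windows at most 3 intervals met a protein-coding gene. jing was thus the gene with the most intervals but not the fullest stretch of this length. For these windows, overlap with lncRNA genes was not counted, so how many of their intervals lay between genes is not given here. These windows were found by their counts, and no test was made of them.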
